A study of Mus musculus with 4 samples.

Results

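Interferon-induced GTPases and the genes of the IFIT and ISG15 systems were followed in mouse splenic CD8 T cells after exposure to TCDD, a dioxin that activates the aryl hydrocarbon receptor (AHR). The set was fixed by gene name, as Ifi47, Igtp, Irgm1, Gbp2, Gbp3, Ifit1, Ifit2, Ifit3, Isg15 and Usp18. A gene was taken as measured where the platform annotation assigned at least 1 probe set to it alone, and its brightest probe set over the 4 arrays represents it. By this rule 9 of the 10 genes were measured, through 10 probe sets, among 12393 genes named on the array. Isg15 was not, since the only probe set that carries its name is shared with the gene model Gm9706.

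The TCDD group was female C57BL/6 mice of 8 to 12 weeks given 10 µg/kg TCDD by intraperitoneal injection, and the DMSO group was mice of the same sex, strain and age given the solvent by the same route. Cells were taken after 24 h in both groups. Each group comprised 2 arrays, and the labels give a number, 1 or 2, to each. The design text gives 4 mice for a group, with their spleen cells pooled before CD8 T cells were purified to above 99%. Whether a group's arrays hold 2 separate pools is not stated. The p-values therefore rest on the spread between arrays alone, and that spread may be technical.

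Interferons signal through JAK kinases and STAT transcription factors and switch on a common programme of antiviral and antimicrobial genes. Type I interferons act mainly through the interferon-stimulated response element (ISRE). Interferon gamma acts mainly through the gamma-activated site (GAS). Immunity-related GTPases (IRG) and guanylate-binding proteins (GBP) attack the vacuoles of intracellular parasites and bacteria, and IFIT proteins bind foreign RNA. ISG15 is a ubiquitin-like protein that is attached to other proteins, and USP18 removes it and restrains the type I interferon receptor. CD8 T cells both respond to interferons and secrete interferon gamma.

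The stretches upstream of the genes are shown first, because they hold the elements through which interferon acts and because the TCDD-activated receptor has an element of its own, the xenobiotic response element (XRE). RefSeq sequence of the mouse build GRCm38.p6 was available for 9 of the 10 genes, all but Usp18, and the 250 bases before each gene start were searched on both strands. The ISRE core was spelled as GAAA, any 2 bases and GAAA, the GAS as TTCNNNGAA and the XRE core as GCGTG, and none of these can lie inside another. Neighbouring ISRE cores may overlap and then form 1 run of capitals. The ISRE core was present for 7 of the 9 genes (Igtp, Irgm1, Gbp2, Gbp3, Ifit1, Ifit3 and Isg15), and in 2.98% of all 32851 windows of this length. A GAS was present for Igtp and Ifit2, and in 7.02% of all windows. The XRE core was present for Ifit2, in the second of its 2 windows, and in 28.2% of all windows. These matches describe the letters only.

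The stretches around the ISRE core matches of the measured genes are given 5′ to 3′ on the strand of the gene, with ISRE cores and, for Igtp, also the GAS in capitals. They show that Igtp and Irgm1, both regulatory IRG genes, carry the element close to the gene start, 34 to 25 bases before it for Igtp and 30 to 15 bases before it for Irgm1, and that Ifit1 and Ifit3 share the same pair of cores. They lie at chr11:58199502-58199551 (plus strand) for Igtp, chr11:48871421-48871470 (minus strand) for Irgm1, chr3:142620584-142620633 (plus strand) for Gbp2, chr3:142559979-142560034 (plus strand) for Gbp3, chr19:34640765-34640833 (plus strand) for Ifit1 and chr19:34583353-34583436 (plus strand) for Ifit3.
Igtp: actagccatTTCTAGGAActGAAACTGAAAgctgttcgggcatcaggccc
Irgm1: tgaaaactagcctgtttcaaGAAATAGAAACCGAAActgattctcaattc
Gbp2: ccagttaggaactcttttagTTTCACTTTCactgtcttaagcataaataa
Gbp3: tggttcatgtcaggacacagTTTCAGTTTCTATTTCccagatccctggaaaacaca
Ifit1: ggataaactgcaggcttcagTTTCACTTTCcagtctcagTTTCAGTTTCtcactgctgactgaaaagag
Ifit3: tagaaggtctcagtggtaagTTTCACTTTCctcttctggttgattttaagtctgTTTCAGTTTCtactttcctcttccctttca

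Ifi47, the gene with the largest measured difference of the set, is shown with its whole window of 250 bases at chr11:49076337-49076586 (plus strand), in which the letters of none of the 3 elements were found.
Ifi47: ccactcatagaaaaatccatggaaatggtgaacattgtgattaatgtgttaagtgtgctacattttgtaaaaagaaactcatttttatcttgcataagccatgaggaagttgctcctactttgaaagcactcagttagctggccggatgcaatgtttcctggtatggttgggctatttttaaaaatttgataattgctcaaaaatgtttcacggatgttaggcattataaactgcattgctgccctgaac

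Values are RMA expression on the log2 scale, so a difference of 1 is a doubling, and differences are TCDD minus DMSO. They were tested with limma over all 22626 probe sets that are not controls, with Benjamini-Hochberg adjustment and a threshold of 0.05. A level can be compared between arrays for the same gene, not between genes.

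No gene of the set passed the test after TCDD, the 95% limits of all 9 crossed 0, and the signs within pairs were mixed. Ifi47, Igtp, Gbp2 and Usp18 measured lower in the TCDD array than in the DMSO array of the same number in both pairs, by between 0.21 and 0.80. Ifit1 measured higher in both pairs, and Irgm1, Gbp3, Ifit2 and Ifit3 differed in opposite directions in the 2 pairs. The limma test called 0 of the 9 genes (0% of all probe sets were called), and 0 of the 9 had an unadjusted p under 0.05, against 1.94% of all probe sets. The lowest adjusted p of all probe sets in this limma fit was 0.9973, so this value, given for single genes below, does not tell genes apart. Lower values within both numbers, found for 4 of 9 genes, were found for 20.5% of all probe sets, and higher values within both, found for 1 of 9, for 22.9%. The median difference was −0.22 over the 9 genes and 0.01 over all probe sets. It was −0.075 without DMSO array 2 and −0.095 without TCDD array 1. With all arrays it was −0.21 between those numbered 1 and −0.23 between the arrays numbered 2, where all probe sets had medians of −0.02 and 0.04.

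**Figure D1:**
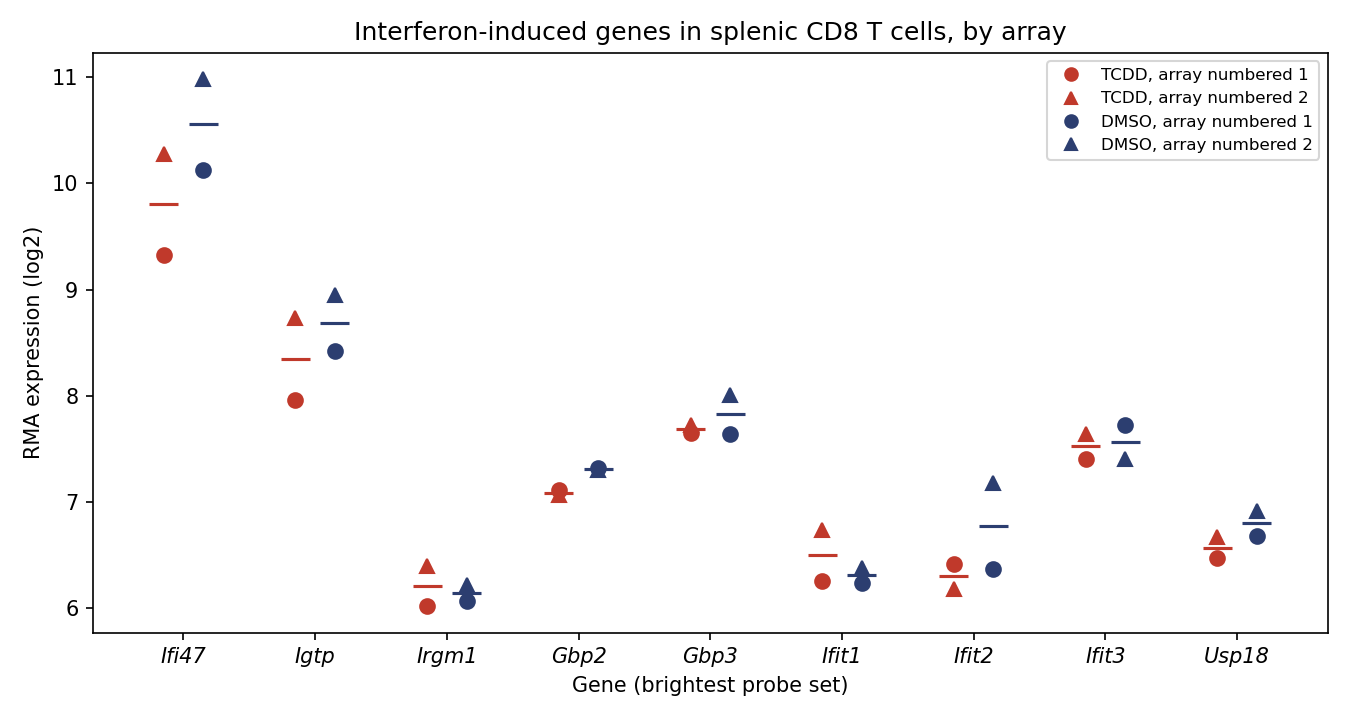
RMA expression (log2, vertical axis) of the 9 measured genes on each of the 4 arrays, TCDD in red and DMSO in blue, circles for arrays numbered 1, triangles for arrays numbered 2 and bars for the mean of the 2 arrays of a group. For Gbp2 and Usp18 both red points lie below both blue points, while for Ifi47 and Igtp the triangles lie above the circles in both groups and the groups overlap.

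Among the immunity-related GTPases, Ifi47 had the largest difference. Ifi47 (also called IRG-47 or Irgd) is a GTPase with the classical nucleotide-binding motif that is recruited to parasite vacuoles in mouse cells. It measured 9.33 and 10.28 in TCDD arrays 1 and 2, against 10.13 and 10.98 in DMSO arrays 1 and 2. Within each number the TCDD array was the lower, by 0.80 and 0.70, yet the groups overlapped, because the array numbered 2 was higher than that numbered 1 by 0.95 in the TCDD group and by 0.85 in the DMSO group. The difference was −0.75, a ratio of 0.595, with 95% limits of −1.86 and 0.36 (adjusted p = 0.9973, limma). It was −0.275 without TCDD array 1, −0.325 without DMSO array 2, −1.225 without TCDD array 2 and −1.175 without DMSO array 1. Of all probe sets, 19 (0.084%) were lower by at least 0.7 within both numbers, a size chosen after the values of Ifi47 were seen. That share mixes all levels, and differences were narrower among dim probe sets. Their 1st percentile was −0.275 for means from 3 to 5 and −1.08 for means from 10 to 11, the range of Ifi47.

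Igtp (Irgm3), which belongs to the regulatory IRG proteins that hold the effector GTPases inactive on the cell's own membranes, followed the same order of arrays with smaller steps. It measured 7.96 and 8.73 in TCDD arrays 1 and 2, against 8.42 and 8.95 in DMSO arrays 1 and 2. Its difference was −0.34, with limits of −1.18 and 0.50, made of −0.46 within number 1 and −0.22 within number 2. The groups overlapped, and without TCDD array 1 the difference was 0.045.

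Irgm1, another regulatory IRG protein that is needed for resistance of mice to intracellular bacteria, did not share this order. It measured 6.02 and 6.40 with TCDD, against 6.07 and 6.22 with DMSO. The TCDD values enclosed the DMSO values, and the difference was 0.065 with limits of −0.37 and 0.50.

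The guanylate-binding protein Gbp2, which helps to break the vacuole of Toxoplasma in mouse cells, was the member whose groups were most clearly apart for their spread. It measured 7.11 and 7.07 in the TCDD arrays, against 7.32 and 7.30 in the DMSO arrays, or 7.09 ± 0.028 and 7.31 ± 0.014 (SD, n = 2 each). The difference was −0.22, with limits of −0.48 and 0.042 (adjusted p = 0.9973, limma), a ratio of 0.859. This probe set is marked for possible cross hybridisation, so related transcripts could contribute to it. The other Gbp2 probe set, without that mark, measured 6.84 and 7.09 with TCDD against 6.99 and 7.46 with DMSO. It was also lower within both numbers, with a difference of −0.26, but its groups overlapped. Groups were fully apart, with both TCDD values the lower, for Gbp2 and Usp18, 2 of the 9 genes, against 12% of all probe sets. With both TCDD values the higher they were apart for 0 of the 9, against 13.5%.

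Gbp3, another member of the guanylate-binding family, differed mainly in the arrays numbered 2. It measured 7.65 and 7.73 with TCDD, against 7.64 and 8.01 with DMSO. The differences within numbers were 0.01 and −0.28, and their mean of −0.135 had limits of −0.55 and 0.28. Without DMSO array 2, which held the highest value, the difference was 0.05.

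**Figure D2:**
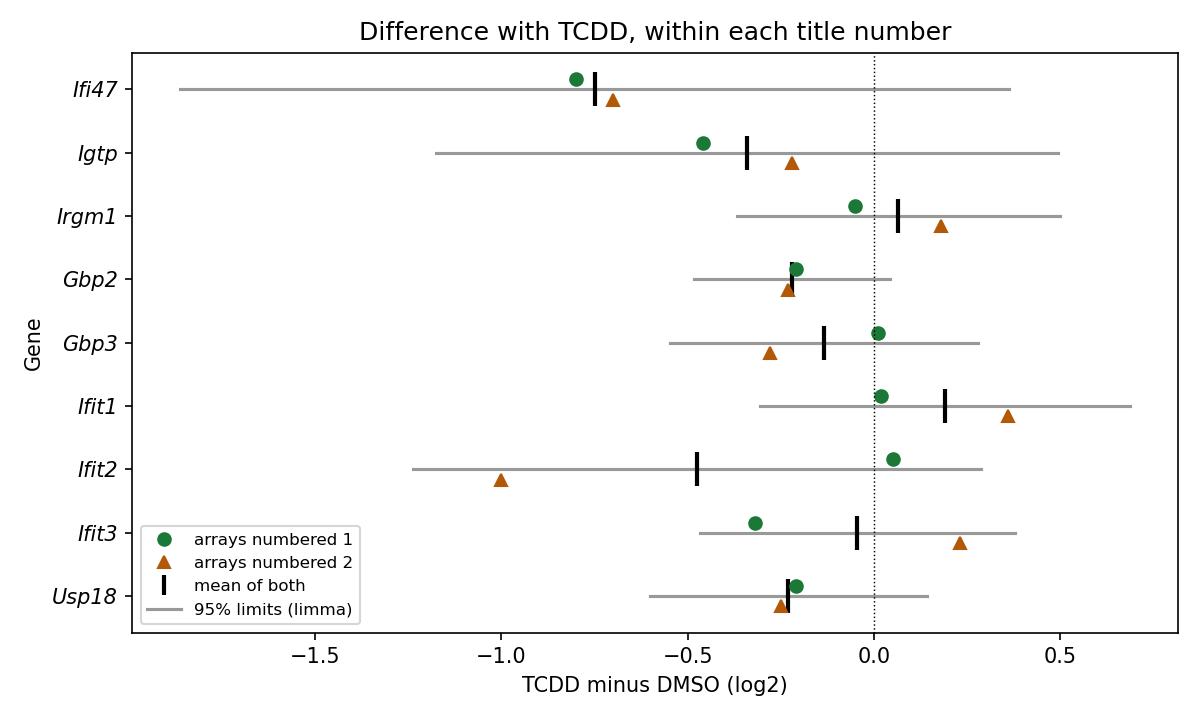
Difference between TCDD and DMSO (log2, horizontal axis) for each of the 9 measured genes, with circles for the arrays numbered 1, triangles for the arrays numbered 2, a black bar for their mean and a grey line for the 95% limits of the limma fit. All 9 grey lines cross 0, and circle and triangle lie together on the left of 0 for Ifi47, Igtp, Gbp2 and Usp18.

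The 3 IFIT genes gave 3 different pictures. Ifit1, whose protein binds viral RNA with a foreign cap, measured 6.26 and 6.74 with TCDD, against 6.24 and 6.38 with DMSO. Its difference of 0.19, with limits of −0.31 and 0.69, was the highest of the set. It came from TCDD array 2, and without that array it was −0.05.

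Ifit2, an antiviral protein that protects mice against neurotropic viruses, measured 6.42 and 6.18 with TCDD, against 6.37 and 7.18 with DMSO. Only DMSO array 2 stood apart. The difference of −0.475, with limits of −1.24 and 0.29, was made of 0.05 within number 1 and −1.0 within number 2. Without DMSO array 2 it was −0.07. That array was also the one with high neutrophil transcripts: the calprotectin gene S100a8 measured 5.55 and 5.94 with TCDD, against 5.45 and 8.67 with DMSO. Its partner S100a9 measured 5.0 and 5.63 with TCDD, against 4.61 and 7.80 with DMSO. Over all 6 neutrophil markers the mean level was 5.96 and 6.28 in the TCDD arrays, against 5.91 and 7.17 in the DMSO arrays. The granule genes Elane, at 7.05 in TCDD array 2 and 6.98 in DMSO array 2, and Mpo, at 6.23 and 6.18 in the same arrays, were not high in DMSO array 2, and the part of such cells in the Ifit2 value was not tested.

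Ifit3, the third gene of the cluster, showed no common direction. It measured 7.41 and 7.64 with TCDD, against 7.73 and 7.41 with DMSO, with −0.32 within number 1 and 0.23 within number 2. The mean of these, −0.045, had limits of −0.47 and 0.38.

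In the ISG15 system, the ISG15 protease gene Usp18 measured 6.47 and 6.67 with TCDD, against 6.68 and 6.92 with DMSO. Both TCDD values were below both DMSO values, by a margin of only 0.01 between TCDD array 2 and DMSO array 1 as the values are rounded. The difference of −0.23, with limits of −0.60 and 0.14, was nearly the same within numbers 1 and 2, at −0.21 and −0.25. The probe set shared by Isg15 and Gm9706 measured 6.91 and 7.61 with TCDD, against 7.34 and 7.34 with DMSO. It cannot be assigned to Isg15, and its difference of −0.08 was of opposite sign in the 2 pairs, at −0.43 and 0.27.

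The number in the label moved with several genes of the set. The array numbered 2 was higher than that numbered 1 in both treatments for 6 of 9 genes, against 30.3% of all probe sets. The steps were largest for Ifi47, given above, and for Igtp, at 0.77 in the TCDD group and 0.53 in the DMSO group. A step of at least 0.5 in both treatments was found for 0.667% of all probe sets. That size lies just below the smaller step of Igtp and was not planned before the values were seen. The share is over probe sets of all levels, not only those as bright as Ifi47 and Igtp. The control probe sets of Gapdh also moved with the number. The probe set at the 3′ end exceeded that at the 5′ end by 5.35 and 4.56 in TCDD arrays 1 and 2. In DMSO arrays 1 and 2 it did so by 5.27 and 4.30. The controls of 2 other genes moved less. For actin the excess was 3.61 and 3.34 with TCDD, against 3.69 and 3.52 with DMSO. For the transferrin receptor it was 0.65 and 0.55 with TCDD, against 0.66 and 0.46 with DMSO. The part of this excess in the steps of Ifi47 and Igtp was not tested.

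Genes of CD8 T cell identity differed among themselves in the order of arrays. Over the 7 of 8 listed markers that were measured, the mean level was 9.23 and 9.70 with TCDD, against 9.71 and 9.86 with DMSO, with a median difference of −0.265. Within both numbers 4 of the 7 were lower with TCDD, against 20.5% of all probe sets, and 3 were mixed. The limma test called 0 of the 7, and 2, Cd8a and Thy1, had an unadjusted p under 0.05, against 1.94% of all probe sets. Both TCDD values were below both DMSO values for 3 of the 7, against 12% of all probe sets. Cd8a, which encodes a chain of the coreceptor, measured 8.17 and 8.74 with TCDD, against 8.91 and 9.46 with DMSO, or −0.74 and −0.72 within numbers 1 and 2. Cd8b1, the gene of the other chain, measured 8.16 and 8.95 with TCDD, against 8.67 and 8.58 with DMSO, or −0.51 and 0.37. Cd3d, at −0.23 and 0.12, and Cd2, at −0.37 and 0.44, were likewise of opposite sign in the 2 pairs. Thy1, at −0.64 and −0.76, Cd3g, at −0.66 and −0.24, and Cd3e, at −0.19 and −0.34, were lower in both pairs, as was Cd8a. Fewer cells of a type and less RNA per cell cannot be told apart in such bulk samples, and the part of these markers in the difference of Ifi47 was not tested. All 7 measured markers were above the array's median level, but so were 7390 of all 12393 named genes, so this does not single out a cell type. Transcripts of MHC class II, which mouse T cells do not make, were present too. H2-Aa measured 11.3 and 10.42 with TCDD, against 10.94 and 9.51 with DMSO, on a probe set marked for possible cross hybridisation. Its other probe set measured 7.43 and 7.03 with TCDD, against 7.30 and 6.45 with DMSO. Of the 6 measured B cell markers, H2-Aa among them, 4 were above the median level. Cd79a and Ms4a1, with means of 5.64 and 5.79, were below it. Of the 5 AHR readout genes, 1 was higher within both numbers and 1 was lower, against 22.9% and 20.5% of all probe sets, and 3 were mixed. For these 5 genes limma called 0, with 0 at an unadjusted p under 0.05, against 1.94% of all probe sets. Tiparp differed by 1.15 and 0.40 within numbers 1 and 2 (mean 0.775, limits −1.28 and 2.83), Cyp1b1 by a mean of −0.155 and Cyp1a1 by a mean of −0.05. The other Tiparp probe sets were less even. Within numbers 1 and 2, 1 differed by 0.71 and −0.56 (mean 0.075) and another by 0.32 and 0.02 (mean 0.17).

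Among the other interferon-inducible GTPases, 8 of 16 listed were measured, with a median difference of −0.188. Within numbers 1 and 2 the medians were −0.21 and −0.23 for the set and 0.015 and −0.39 for these GTPases. TCDD values were lower within both numbers for Irgm2, Iigp1 and, named after its values were seen, Gbp8. For Gbp8 the difference within number 1 was only −0.01, as the values are rounded. TCDD values were higher within both for Mx2 and, likewise named afterwards, Gbp2b. The mean level of Gbp2b, 4.72, was below the median of all probe sets. Lower values within both numbers were thus found for 3 of the 8 genes and higher values for 2, against 20.5% and 22.9% of all probe sets. The limma test called 0 of the 8 genes, and 0 had an unadjusted p under 0.05, against 1.94% of all probe sets.

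Irgm2, the remaining regulatory IRG protein of mice, measured 6.03 and 6.61 with TCDD, against 6.26 and 7.36 with DMSO. The order of its arrays, lowest in TCDD array 1 and highest in DMSO array 2, was that of Ifi47 and Igtp. Iigp1 had this order too, and the share of all probe sets with it was not counted. The difference of Irgm2 was −0.49 with limits of −1.58 and 0.60. Iigp1 (Irga6), an effector GTPase that coats parasite vacuoles, measured 6.28 and 6.57 with TCDD, against 6.56 and 7.14 with DMSO. Its difference was −0.425, with limits of −1.03 and 0.18, and its dimmer probe set differed by −0.08. For both genes DMSO array 2 held the highest value and the groups overlapped. Among dynamin-like GTPases, Mx2 measured 6.28 and 6.50 with TCDD, against 6.14 and 6.41 with DMSO, a difference of 0.115.

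**Figure D3:**
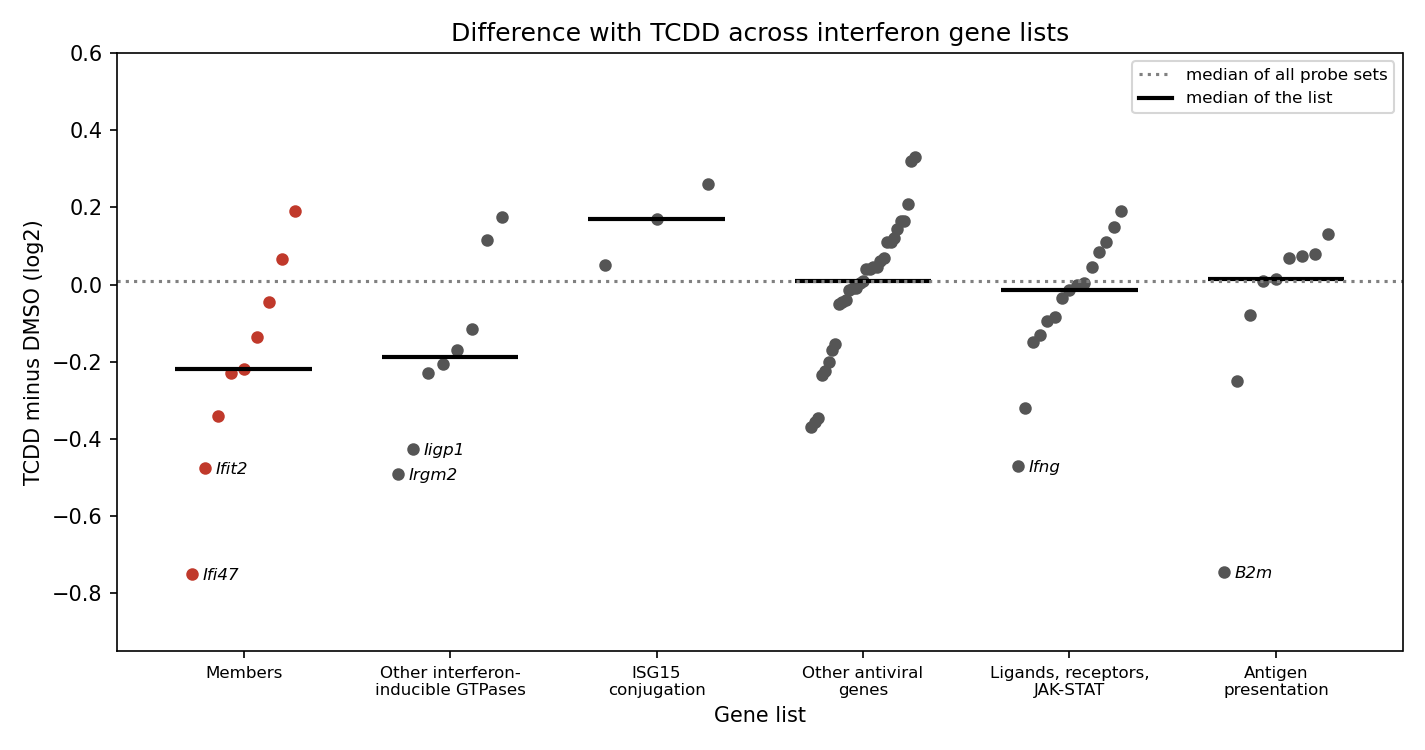
Difference between TCDD and DMSO (log2, vertical axis) for each measured gene of the set (red) and of 5 further interferon gene lists (grey), with a black line for the median of each list and a dotted line for the median of all probe sets. The medians of the set and of the other GTPases lie at −0.22 and −0.188, those of the antiviral, signalling and antigen presentation lists at 0.01, −0.015 and 0.015, and that of the 3 ISG15 conjugation genes at 0.17.

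The remaining antiviral genes were spread evenly around 0. Of 41 listed, 31 were measured, with a median difference of 0.01 and a range from −0.37 to 0.33. Within both numbers 7 were lower and 8 higher after TCDD, against 20.5% and 22.9% of all probe sets, and 16 were mixed. The antibody receptor gene Trim21 had the lowest difference, at 7.75 and 7.85 with TCDD against 7.93 and 8.41 with DMSO, but its other probe set differed by 0.12. The nucleic acid sensor gene Zbp1 had the highest, at 7.42 and 7.85 with TCDD against 7.34 and 7.27 with DMSO. The other Zbp1 probe set differed by 0.135, made of −0.11 within number 1 and 0.38 within number 2. Ifi27l2a differed by −0.355 and Bst2, which encodes the virion tether, by 0.32. The limma test called 0 of the 31 genes, with 0 at an unadjusted p under 0.05, against 1.94% of all probe sets.

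Of 4 genes listed for ISG15 conjugation, 3 were measured, with a median difference of 0.17, or −0.04 within number 1 and 0.35 within number 2. Trim25, which encodes a ligase for ubiquitin and ISG15, measured 10.46 and 10.57 with TCDD, against 10.29 and 10.22 with DMSO. Both TCDD values were above both DMSO values, and the difference of 0.26 had limits of −0.022 and 0.54. The other Trim25 probe sets differed by 0.19 and 0.025, and in both the groups overlapped. Uba7, which encodes the enzyme that activates ISG15, differed by −0.04 within number 1 and 0.38 within number 2. The limma test called neither, and 0 of the 3 genes had an unadjusted p under 0.05, against 1.94% of all probe sets.

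Upstream, the genes of interferon ligands, receptors and JAK-STAT signalling had a median difference of −0.015 over 15 of 16 listed. Ifng, which encodes interferon gamma, the main inducer of IRG and GBP genes, measured 8.12 and 7.01 with TCDD, against 8.58 and 7.49 with DMSO. Within numbers 1 and 2 it was lower by 0.46 and 0.48, about as evenly as Ifi47, and the difference of −0.47 had limits of −1.82 and 0.88. Its relation to the number was the opposite of that of Ifi47. The array numbered 2 was lower than that numbered 1, by 1.11 in the TCDD group and by 1.09 in the DMSO group.

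The receptor chain gene Ifnar1 measured 7.05 and 6.97 with TCDD, against 7.11 and 7.55 with DMSO. Its groups did not overlap, and its difference was −0.32 with limits of −0.78 and 0.14. Ifngr2, a chain of the interferon gamma receptor, differed by 0.19, and Irf7, an amplifier of type I interferon, by 0.15 within both numbers. The other Ifngr2 probe set differed by −0.08. In this list 4 genes were lower within both numbers and 1, Irf7, was higher, against 20.5% and 22.9% of all probe sets. The limma test called 0 of the 15, with 0 at an unadjusted p under 0.05, against 1.94% of all probe sets.

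Of the antigen presentation genes that interferon gamma induces, B2m alone had 95% limits on 1 side of 0. That is 1 of 9 measured genes at an unadjusted p under 0.05 (limma), against 1.94% of all probe sets. B2m encodes the light chain of MHC class I and measured 11.19 and 11.48 with TCDD, against 11.74 and 12.42 with DMSO. The difference of −0.745, with limits of −1.42 and −0.066, was not past the threshold in limma (adjusted p = 0.9973). Its other probe set, at 10.45 and 10.83 with TCDD and 11.22 and 12.29 with DMSO, differed by −1.12. The other genes of this list had differences from −0.25 to 0.13. Over the 9 of 10 genes measured the median was 0.015, the immunoproteasome subunit gene Psmb9 was at −0.25, the checkpoint ligand gene Cd274 at 0.08 and the chemokine gene Cxcl10 at 0.13.

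Over the 5 further lists together, 66 of 87 genes were measured, with a median difference of 0.005. Within both numbers 15 of the 66 were lower and 12 higher after TCDD, against 20.5% and 22.9% of all probe sets. The limma test called 0 of the 66, and 1, B2m, had an unadjusted p under 0.05, against 1.94% of all probe sets.

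**Figure D4:**
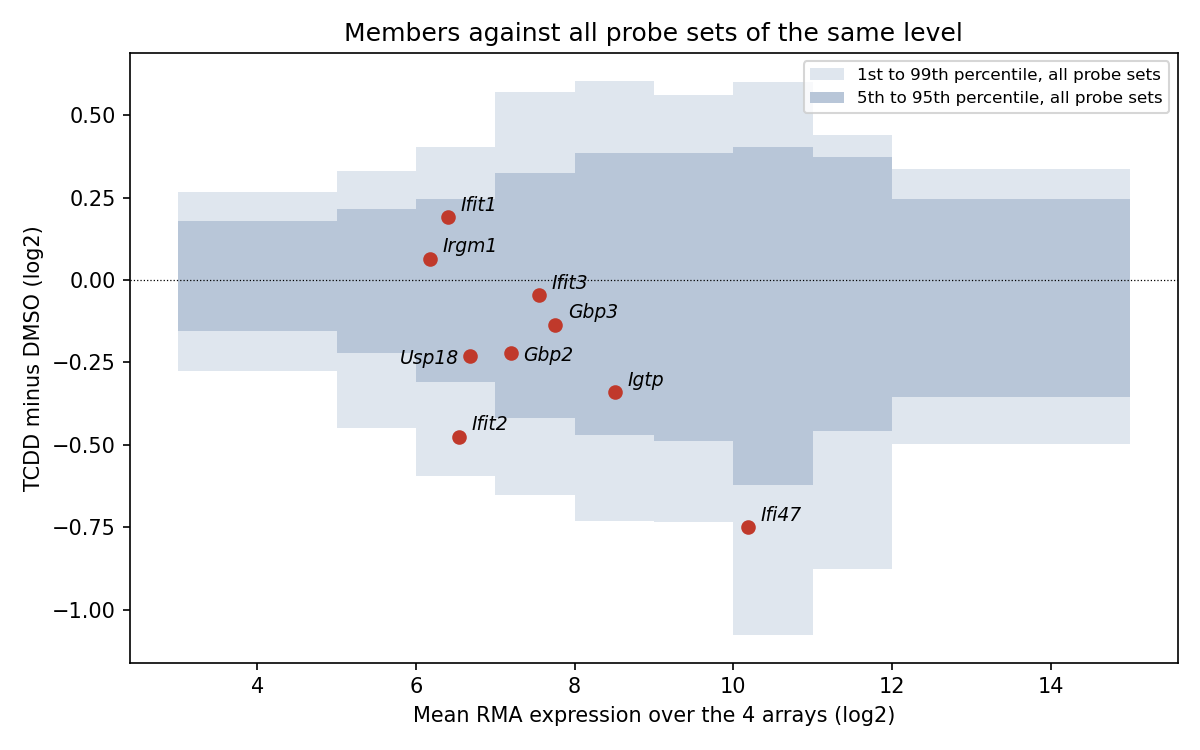
Difference between TCDD and DMSO (log2, vertical axis) against the mean RMA expression over the 4 arrays (log2, horizontal axis) for the 9 measured genes (red), with bands for the 5th to 95th and 1st to 99th percentiles of all probe sets in the same range of level. Ifi47 and Ifit2 lie below the 5th percentile of their range, at −0.62 and −0.31, and above the 1st percentile, at −1.08 and −0.595, while the other 7 genes lie inside the darker band.

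Set against probe sets of similar level, Ifi47 and Ifit2 were the members below the 5th percentile of differences. The 5th percentile was −0.62 for the 377 probe sets with a mean from 10 to 11, the range that holds Ifi47. It was −0.31 for the 4817 probe sets with a mean from 6 to 7, the range that holds Ifit2.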

How the data were processed

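Splenic CD8 T cells were profiled on 4 Affymetrix arrays, 2 per treatment. The deposited table holds 1 log2 expression value for each of 22690 probe sets and array, made by the authors with RMA per the submitters' processing notes. No version of RMA is named. Values from 3.09 to 14.62 set the scale as log2, and array medians were 5.97 and 6.03 for TCDD and 5.99 and 6.01 for DMSO. RMA values have no true zero, and the number of arrays limits the precision.

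The 64 control probe sets were left out. Genes were named from the platform annotation, updated through Entrez identifiers in RefSeq tables of GRCm38.p6: 20380 probe sets had 1 symbol, 691 several and 1555 none. Tests used limma 3.58.1 in R 4.3.3 (lmFit, eBayes, no covariate, no filter). They were also run on data simulated from limma's own model, which cannot show whether that model holds for these arrays. Members and gene lists were chosen with earlier results of these data known. All members are named, and from each further interferon list up to 2 genes with the largest differences in each direction among those above the median level; of the marker and AHR lists only genes that bear on a result are named. Listed genes without a probe set of their own were not analysed here.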

Additional observations from a re-analysis of the deposited data

How the results depend on the processing

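None of the 9 genes, of the 66 genes of the wider lists or of all probe sets passed the limma threshold under any of the 13 alternatives, which were median centring, a further quantile normalisation, 2 filters on dim probe sets, a robust fit with a variance trend, weighted arrays, leaving out probe sets marked for cross hybridisation, gene means, the replicate block and each array left out in turn. Over all probe sets, 439 had an unadjusted p under 0.05 in the fit reported here, and from 116 to 1079 under these alternatives. Apart from the arrays left out, each member kept its sign, with Ifi47 from −0.75 to −0.725 and Igtp from −0.34 to −0.314. The count of members lower within both numbers, recomputed under alternatives chosen after seeing the data, stayed at 4 except with a further quantile normalisation, where it was 5. With the replicate block the count was 0 of 22626 and the member median −0.22 (adjusted p = 0.9942 for each member). Deviations of same-numbered arrays correlated at 0.234 over probe sets, but with 2 pairs and no label on what the number marks, the arrays share only a number. With an array left out, the lone array of its group is taken to have the other group's spread. The median difference of the members then ran from −0.32 to −0.075. Ifi47 ran from −1.225 to −0.275, Gbp2 from −0.24 to −0.20, Usp18 from −0.35 to −0.11 and Ifit2 from −0.88 to −0.07. Signs turned for Igtp (−0.725 to 0.045), Irgm1 (−0.125 to 0.255), Gbp3 (−0.32 to 0.05), Ifit1 (−0.05 to 0.43) and Ifit3 (−0.205 to 0.115), and the cause was not tested beyond the array left out.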
